A study of Mus musculus with 7 samples.

Results

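The 10 small nucleolar RNA (snoRNA) host genes Gas5, Snhg1, Snhg3, Snhg5, Snhg6, Snhg8, Snhg11, Snhg12, Snhg17 and Snhg20 were followed through a nanopore long-read RNA-seq dataset of mouse neural stem cells (NSCs). They were picked by name, through the Gencode symbol of each gene identifier, from 55335 annotated genes. The NSCs are brain precursor cells of strain FVB/N that were kept dividing in medium with the growth factors EGF and bFGF. The dataset has 4 wild-type (WT) samples and 3 samples carrying the MommeD1 mutation of Smchd1 (*Smchd1*-null), which removes a chromatin repressor from every cell rather than from 1 cell type. Age of the animals and the relation of samples to cultures or litters were not given, so p-values measure the spread between these samples, which may be technical. Direct-cDNA libraries of polyadenylated RNA were sequenced in 2 batches with a newer kit (DCS109 in place of DCS108) in batch 2. Batch 1 held WT replicate 2 and *Smchd1*-null replicates 1 and 2, batch 2 held WT replicates 3 and 4 and *Smchd1*-null replicate 3, and WT replicate 1 was sequenced in both. Total counts ranged from 2.74 to 7.74 M per library.

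A snoRNA is a short nuclear RNA that guides the chemical modification of ribosomal RNA. C/D snoRNAs carry a C box and a D box and direct methylation of the ribose, and H/ACA snoRNAs end near the letters ACA and direct conversion of uridine to pseudouridine. Most mammalian snoRNAs lie in introns and are trimmed from the intron after splicing of a host gene. Some hosts encode ribosomal proteins or translation factors, while the genes described here are hosts whose spliced RNA is mostly noncoding. Several such host RNAs begin with a 5′ terminal oligopyrimidine tract, which places them under the same growth-dependent control of translation as ribosomal protein mRNAs. Their spliced RNAs can be destroyed by nonsense-mediated decay, so the level of the host RNA does not give the level of the snoRNA.

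The Gencode annotation of GRCm38 placed 34 snoRNA genes within the members, on the strand of the host. Gas5 held 10 of them, Snhg1 held 8, Snhg12 held 5, Snhg17 held 3, Snhg3, Snhg5 and Snhg11 held 2 each, and Snhg6 and Snhg8 held 1 each. Snhg20 held none and instead contained a small Cajal body RNA, Gm26083, a relative of snoRNAs, and the microRNA gene Mir6516. The pair searched was a C box TGATGA in the first 25 bases and a D box CTGA in the last 25. Of the 34 snoRNA genes, with overlapping annotations counted apart, 18 (52.9%) had it, against 20.7% of all 1507 annotated snoRNAs. A further 10 (29.4%) had no such pair, were at least 120 bases long and had ACA in the last 8 bases, against 38.4% of all snoRNAs. The other 6 (17.6%) met neither description, against 40.9%. These letters were searched on the strand of the RNA only.

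The cargo of the members divided by host. The 10 annotated snoRNA genes of Gas5 lay at 9 loci, since a pair overlap as Snord80, and were 60 to 84 bases long. Of these genes 8, with both Snord80 entries, had both boxes of the C/D class, as did 6 of the 8 in Snhg1 and both in Snhg5. The snoRNAs of Snhg3, Snhg8 and Snhg11 were all of the H/ACA form, and Snhg12 carried 3 annotated H/ACA genes, of which a pair overlap as Snora16a, and 1 C/D gene. The C/D sequences below are shown for 1 or 2 snoRNAs of each such host, from Gencode M21 in DNA letters, with the C and D boxes in capitals.
Snord47 in Gas5, chr1:161038082-161038158, + strand: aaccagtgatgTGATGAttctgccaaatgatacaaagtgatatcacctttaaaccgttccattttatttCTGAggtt
Gm22744 in Snhg1, chr19:8725092-8725156, + strand: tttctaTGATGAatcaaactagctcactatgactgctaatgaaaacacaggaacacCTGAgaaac
Snord50a in Snhg5, chr9:88521529-88521600, − strand: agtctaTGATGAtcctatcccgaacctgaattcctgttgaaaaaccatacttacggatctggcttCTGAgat
Snord50b in Snhg5, chr9:88521797-88521868, − strand: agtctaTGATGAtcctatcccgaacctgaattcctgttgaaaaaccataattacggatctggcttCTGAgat
Snord87 in Snhg6, chr1:9942463-9942549, − strand: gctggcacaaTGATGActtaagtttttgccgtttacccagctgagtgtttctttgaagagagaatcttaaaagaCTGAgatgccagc
Snord99 in Snhg12, chr4:132310691-132310764, + strand: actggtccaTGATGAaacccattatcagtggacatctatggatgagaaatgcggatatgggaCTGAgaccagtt

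Snord50a and Snord50b, the snoRNAs inside Snhg5, were identical at 71 of 72 bases (98.6%). Their difference was C50A, counted from 1 at the 5′ end with the base of Snord50a first. The H/ACA sequences and the small Cajal body RNA of Snhg20 are shown with the ACA near the 3′ end in capitals.
Snora24 in Snhg8, chr3:123507937-123508066, − strand: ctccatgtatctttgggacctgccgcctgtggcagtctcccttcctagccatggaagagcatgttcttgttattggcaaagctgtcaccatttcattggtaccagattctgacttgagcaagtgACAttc
Snora61 in Snhg12, chr4:132310240-132310369, + strand: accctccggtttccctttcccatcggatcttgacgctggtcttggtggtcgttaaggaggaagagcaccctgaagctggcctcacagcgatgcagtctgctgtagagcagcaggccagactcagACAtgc
Gm25187 in Snhg11, chr2:158378222-158378354, + strand: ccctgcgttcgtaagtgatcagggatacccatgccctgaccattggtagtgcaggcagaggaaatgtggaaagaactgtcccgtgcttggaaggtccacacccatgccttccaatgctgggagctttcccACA
Gm23925 in Snhg17, chr2:158359798-158359929, − strand: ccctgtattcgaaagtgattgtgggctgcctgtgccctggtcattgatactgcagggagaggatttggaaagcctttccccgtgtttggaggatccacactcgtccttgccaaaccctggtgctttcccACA
Snora73a in Snhg3, chr4:132352775-132352979, − strand: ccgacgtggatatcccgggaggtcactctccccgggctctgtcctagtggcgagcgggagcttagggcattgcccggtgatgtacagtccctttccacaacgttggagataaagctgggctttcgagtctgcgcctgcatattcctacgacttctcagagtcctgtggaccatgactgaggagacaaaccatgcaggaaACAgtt
Gm26083 in Snhg20, chr11:117077243-117077435, + strand: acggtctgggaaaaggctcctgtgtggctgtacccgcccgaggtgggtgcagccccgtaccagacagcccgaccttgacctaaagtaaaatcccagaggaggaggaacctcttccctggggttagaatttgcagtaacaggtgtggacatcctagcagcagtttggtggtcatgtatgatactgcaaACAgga

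Snora73a and its neighbour Snora73b within Snhg3, of 205 bases each, were identical at 198 bases (96.6%). Snora73 is the U17 snoRNA, which acts in the cleavage of the ribosomal RNA precursor.

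All 36 small RNA genes within the members (34 snoRNAs, the small Cajal body RNA and the microRNA) were listed at 0 counts in each of the 7 libraries. Across the whole annotation 1210 of the 1507 snoRNA genes were at 0 in all 7 libraries, and snoRNA genes together took between 0.0068% and 0.00997% of counts. The libraries were made from polyadenylated RNA, a tail that mature snoRNAs lack, so the values below are those of the host RNAs and say nothing of snoRNA levels. Of the 36 genes, 33 also lay under an exon of at least 1 annotated host transcript and 3 (Snora73b, Snord87 and Gm25129) were intronic in every host transcript. How a read that overlaps 2 genes was treated is not given in the sources used here, so these zeros are listed values and set no upper limit.

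RefSeq start sites of GRCm38.p6 were listed for 9 of the 10 members, with 2 starts each for Gas5 and Snhg17, and Snhg6 was not in the table. The letters TATAAA or TATATA, 2 forms of the TATA box that overlap each other in part, were searched on the strand of the gene between 40 and 11 bases before the start. They were present at 1 start of Gas5 and at those of Snhg5, Snhg8 and Snhg12, that is at 4 of 11 starts, against 2.89% of 32851 starts in the table. With both strands searched, Snhg1 was added (5 of 11 starts, against 3.43%). The 30 bases from 40 to 11 before the start are shown for these 4 genes because such a box is rare among all starts, with the box in capitals.
Gas5, start at base 161035166 of chromosome 1, + strand: cacgaagacctTATATActcgactcagccg
Snhg5, start at base 88522897 of chromosome 9, − strand: tctcgcacaaaggagacTATAAAaggagct
Snhg8, start at base 123508336 of chromosome 3, − strand: tcacccgggcTATAAAagcgtgcgcgcacc
Snhg12, start at base 132308678 of chromosome 4, + strand: cgcgagagTATATAatcctggtgcaggccg

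A pyrimidine tract, defined here as 5 or more bases of C and T that begin with C within 5 bases of the annotated start, was found at 4 of 11 starts (Gas5, Snhg3, Snhg8 and Snhg12) against 18.3% of all starts. For the 3 of these genes that also had a TATA box, the bases from 10 before the start to 20 from it are shown, with the tract in capitals.
Gas5, chr1:161035156-161035185, + strand: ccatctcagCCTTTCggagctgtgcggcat
Snhg8, chr3:123508317-123508346, − strand: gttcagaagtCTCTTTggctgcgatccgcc
Snhg12, chr4:132308668-132308697, + strand: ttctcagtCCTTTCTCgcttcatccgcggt

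These matches describe letters in a window and not the use of a promoter, and the annotated start can differ from the start used in NSCs.

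Library composition was examined first. Smchd1 was between 55.7 and 74.7 counts per M (mega) counts (CPM) in WT and between 12.8 and 18.4 CPM in *Smchd1*-null samples, without overlap. All 10 NSC markers were expressed, with a summed level of 8726 to 13622 CPM in WT and 8417 to 9926 CPM in *Smchd1*-null samples. Microglial, endothelial and mesenchymal marker sums were at most 3.43 CPM in any sample. WT replicate 4 stood apart in the other brain lineages. Its 5 oligodendrocyte lineage markers summed to 418 CPM against 20.97 to 77.7 CPM in the other six, and its 4 astrocyte markers summed to 113 CPM against 28.6 to 37.9 CPM. Results were therefore also computed without this library.

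Host RNA levels in WT spanned from Gas5, which ranked 415 among all 55335 genes by WT mean, to Snhg3 without a count. The 10 members together reached 840, 854, 943 and 834 CPM in WT replicates 1 to 4 and 943, 948 and 858 CPM in *Smchd1*-null replicates 1 to 3. The highest of these sums was 1.14 times the lowest, and the genotypes overlapped.

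**Figure D1:**
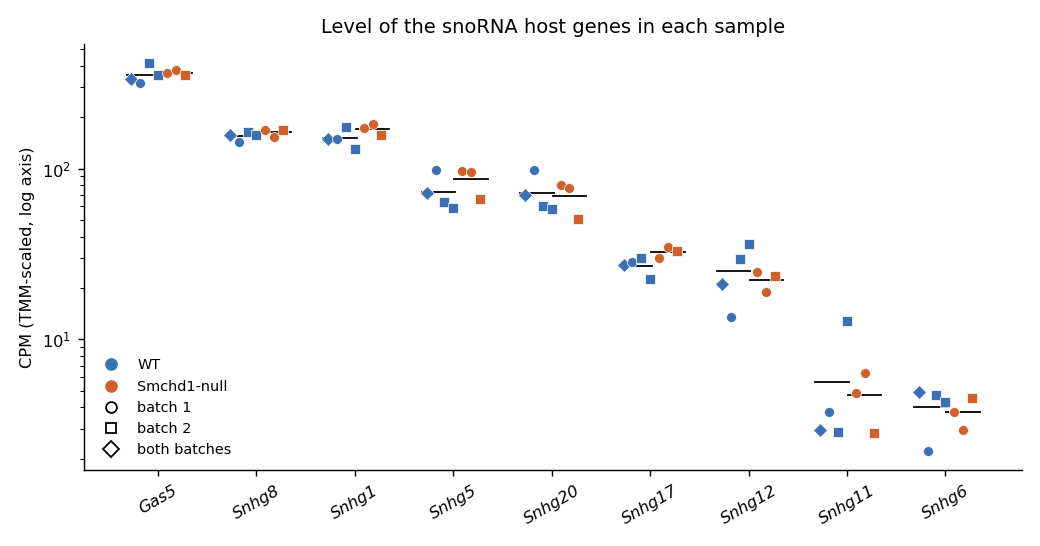
CPM of the 9 detected host genes in each sample on a log axis, ordered by WT mean, with colour for genotype, marker shape for sequencing batch and a line at the mean of each genotype. Gas5 lies at 319 to 413 CPM in all 7 samples and Snhg6 and most Snhg11 values lie under 7 CPM.

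Gas5 (chr1:161034422-161038539, + strand), a growth-arrest-specific transcript whose RNA can also bind the glucocorticoid receptor, had 336, 319, 413 and 353 CPM in WT replicates 1 to 4. The *Smchd1*-null values were 361, 377 and 351 CPM. The genotypes overlapped fully, with means of 355 ± 41.0 (SD, n = 4) and 363 ± 13.5 CPM (SD, n = 3). Gas5 alone supplied between 37.3% and 43.8% of the members' summed CPM.

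Snhg8 (chr3:123507552-123508404, − strand), the host of Snora24, had 157, 142, 164 and 158 CPM in WT and 168, 153 and 168 CPM in *Smchd1*-null samples. It was the steadiest member, with a highest value of 1.18 times the lowest. Snhg1 (chr19:8723475-8726443, + strand), the host of 8 snoRNAs, had 148, 150, 175 and 131 CPM in WT and 174, 182 and 158 CPM in *Smchd1*-null samples. Snhg8 and Snhg1 overlapped in WT and could not be ordered.

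Snhg5 and Snhg20 formed the next level. Snhg5 (chr9:88521050-88522929, − strand), the host of the Snord50 pair, had 72.0, 98.2, 63.7 and 58.5 CPM in WT and 96.8, 95.6 and 66.7 CPM in *Smchd1*-null samples. Snhg20 (chr11:117076008-117078955, + strand) had 70.3, 97.5, 60.6 and 57.8 CPM in WT and 80.0, 76.9 and 50.9 CPM in *Smchd1*-null samples. In both genes WT replicate 2 was the highest sample and the batch 2 samples were the lowest.

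Snhg17 and Snhg12 were lower again. Snhg17 (chr2:158353700-158361580, − strand) had 27.4, 28.4, 29.9 and 22.5 CPM in WT and 30.03, 34.9 and 33.1 CPM in *Smchd1*-null samples, so that all 3 *Smchd1*-null values lay above all 4 WT values. Snhg12 (chr4:132308623-132311024, + strand) had 21, 13.5, 29.4 and 36.0 CPM in WT and 24.8, 19.03 and 23.4 CPM in *Smchd1*-null samples, which lay inside the WT range.

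The lowest detected members were Snhg11 and Snhg6. Snhg11 (chr2:158375638-158386145, + strand), which Gencode classes as protein coding, had 2.93, 3.78, 2.88 and 12.9 CPM in WT and 4.88, 6.39 and 2.81 CPM in *Smchd1*-null samples. Snhg6 (chr1:9941959-9944118, − strand), the host of Snord87, had 4.88, 2.22, 4.72 and 4.29 CPM in WT and 3.75, 2.93 and 4.55 CPM in *Smchd1*-null samples, from 10 to 25 counts per library. The genotypes overlapped for both genes. The exons of Snhg6 share 127 bases with Mcmdc2 on the opposite strand, a gene with 5 counts in all, and no source says that strand was used in counting.

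Per length the order changed at the top. Long-read libraries are not fragmented, and the authors state that they should in theory carry no bias to gene length. Division by length then favours short genes, so the order by length is not one of RNA abundance. The length used also exceeds the longest annotated transcript, which has 2556 bases for Gas5 and 776 for Snhg8. Divided by the deposited gene length, which is the summed length of all annotated exons, Snhg8 (853 bases) had a WT mean of 182 ± 10.9 CPM per kilobase and stood above Gas5 (3760 bases, 94.5 ± 10.9 CPM per kilobase; SD, n = 4 for both) without overlap. Snhg1 followed with 50.8 CPM per kilobase, Snhg5 with 42.3 and Snhg20 with 25.6, and neighbours among these 3 overlapped. Snhg12 had 10.4, Snhg17 3.83, Snhg6 3.51 and Snhg11 0.659 CPM per kilobase, and only Snhg17 and Snhg6 overlapped among these. By CPM without length the order was Gas5, then Snhg8 and Snhg1, then Snhg5 and Snhg20, then Snhg17 and Snhg12, then Snhg11 and Snhg6, where genes joined by "and" overlapped over the 4 WT samples.

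Snhg3 (chr4:132348014-132353686, − strand), the host of Snora73a and Snora73b, had 0 counts in all 7 libraries. Its annotation differs from that of the other members, since 86.3% of its 986 exon bases lie under exons of other genes, against 1.6% to 20.9% in the other 9. These are 705 bases of the noncoding gene Gm17300 on the opposite strand, 135 bases of Rcc1 on the same strand, and bases of Snora73a. Gm17300 had 2 counts in all, and Rcc1, a regulator of the Ran cycle, had 38.1 to 62.1 CPM. The 0 of Snhg3 is given as a listed value, since the treatment of reads over shared exons is unknown.

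The comparison of *Smchd1*-null with WT samples asks which genes depend on Smchd1. Snhg3 did not pass the filter, and of the 9 members tested 0 passed an adjusted p of 0.05 or of 0.25 in limma, where 0.0902% and 1.08% of 13305 genes passed. The unadjusted p was under 0.05 for 1 member, Snhg5, where 13.9% of all genes had such a p. edgeR's quasi-likelihood test called 0 members at either threshold (0.00752% and 0.0601% of all genes), and so did DESeq2 (0.128% and 0.241%). Neither gave a member an unadjusted p under 0.05, which 5.07% of all genes had in edgeR and 4.46% in DESeq2. The median log2 fold change was 0.0856 over the 9 members and 0.00492 over all genes.

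**Figure D2:**
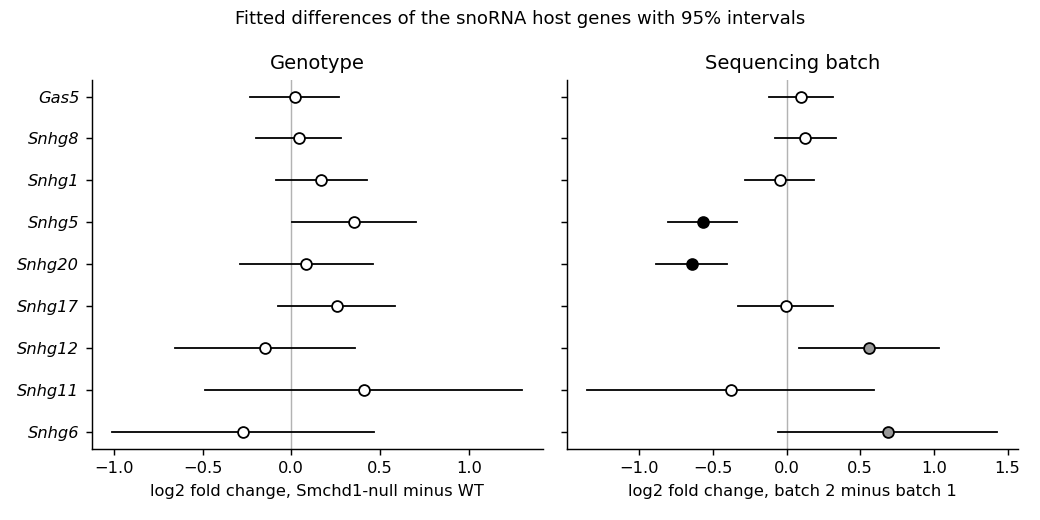
Log2 fold change of each detected host gene between genotypes (left) and between batches (right), with points at the fitted value, lines for the 95% interval, black points for an adjusted p under 0.05, grey for under 0.25 and white for the rest. No point is filled on the left, and on the right Snhg5 and Snhg20 are black below 0 while Snhg12 and Snhg6 are grey above 0.

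The 95% intervals below come from the fit without a batch term. Since the genotypes are spread unevenly over batches, they do not bound the genotype difference that could be missed. They were narrow for the abundant hosts, with a log2 fold change of 0.02 for Gas5 (95% interval −0.23 to 0.27), 0.04 for Snhg8 (−0.20 to 0.28) and 0.17 for Snhg1 (−0.09 to 0.43). For the rare hosts they were wide, with 0.41 for Snhg11 (−0.49 to 1.30) and −0.27 for Snhg6 (−1.01 to 0.46). Snhg12 had −0.15 (−0.66 to 0.36) and Snhg20 had 0.09 (−0.29 to 0.46). The signs of Snhg20, Snhg12 and Snhg6 turned when batch entered the fit.

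Snhg17 was the only member whose genotypes did not overlap, as was the case for 5.53% of all genes, and for 2.52% with the *Smchd1*-null samples higher. Its log2 fold change was 0.26 ± 0.15 (SE), with an adjusted p of 0.448 in limma, and it was 0.18 between the log-CPM means of the batch 1 samples and 0.35 between those of batch 2. Snhg5 had a log2 fold change of 0.36 ± 0.16 (SE), with an unadjusted p of 0.0468 and an adjusted p of 0.355 in limma. Within batches its difference was −0.03 in batch 1 and 0.13 in batch 2, and with the share of batch 2 as a term the fitted value was 0.04 ± 0.10 (SE). For Snhg20 the difference of *Smchd1*-null from WT samples was −0.31 in batch 1 and −0.22 in batch 2. With the share of batch 2 as a term its fitted value was −0.27 ± 0.10 (SE), in place of 0.09, with an unadjusted p of 0.0201 and an adjusted p of 0.520 in limma. It was the only member with an unadjusted p under 0.05 in that fit, as 7.97% of all genes had. Snhg12 differed by 0.66 in batch 1 and −0.47 in batch 2 and had 0.14 ± 0.21 (SE) with the term. Snhg6 differed by 0.50 and 0.01 and had 0.17 ± 0.32 (SE). The genotypes are spread unevenly over batches, since 2 of the 3 *Smchd1*-null samples and 1 of the 4 WT samples were sequenced in batch 1 alone.

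The difference between batches was measured over the 6 samples sequenced once, with genotype as a second term. Snhg5 and Snhg20 were lower in batch 2, Snhg12 and Snhg6 were higher at the liberal threshold, and Gas5, Snhg1, Snhg8, Snhg11 and Snhg17 passed neither. Thus 2 of 9 members passed an adjusted p of 0.05, where 9.99% of 14713 genes passed, and 4 of 9 passed 0.25, where 33.8% passed. Both members past 0.05 were lower in batch 2, as were 5.08% of all genes. At 0.25, 2 were lower and 2 higher, where 15.9% and 17.9% of all genes were, and the members' median log2 fold change was −0.006 against 0.0156 over all genes. edgeR and DESeq2 each called 2 members at 0.05, where they called 1.39% and 3.41% of all genes, and 3 at 0.25, where they called 21.1% and 11%.

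Snhg5 was 98.2, 96.8 and 95.6 CPM in the batch 1 samples, 63.7, 58.5 and 66.7 CPM in the batch 2 samples, and 72.0 CPM in WT replicate 1, which holds reads of both. The batches did not overlap, and the sample sequenced in both lay between them. The log2 fold change was −0.57 ± 0.11 (SE), with an adjusted p of 0.00793 in limma. It was −0.68 between the WT samples and −0.53 between the *Smchd1*-null samples.

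Snhg20 was 97.5, 80.0 and 76.9 CPM in batch 1, 60.6, 57.8 and 50.9 CPM in batch 2, and 70.3 CPM in WT replicate 1, again with no overlap. Its log2 fold change was −0.64 ± 0.11 (SE), with an adjusted p of 0.00531 in limma, and it was −0.72 between the WT and −0.62 between the *Smchd1*-null samples. Snhg12 went the other way, at 0.56 ± 0.22 on the log2 scale (SE, adjusted p = 0.124 in limma). Its batches overlapped, and the difference was 1.24 between WT samples and 0.10 between *Smchd1*-null samples. Snhg6 had 0.69 ± 0.35 (SE, adjusted p = 0.222 in limma) and did not overlap between batches, from 10 to 25 counts per library.

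**Figure D3:**
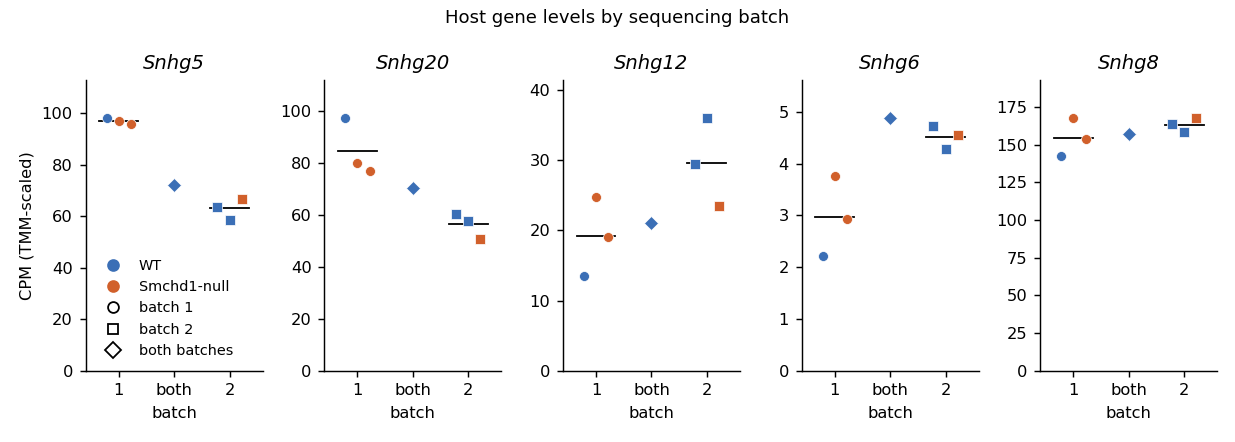
CPM of 5 host genes by sequencing batch on axes that start at 0, with colour for genotype, WT replicate 1 (both batches) in the middle and a line at the mean of each batch. Snhg5 falls from a batch 1 mean of 96.9 to a batch 2 mean of 63.0 CPM and Snhg20 from 84.8 to 56.4 CPM, while Snhg8 overlaps between batches.

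Among the members Snhg5, Snhg6 and Snhg20 showed no overlap between batches, where 30.9% of all genes showed none. WT replicate 1 lay between the log-CPM means of the batches for Snhg5, Snhg8, Snhg12 and Snhg20, as for 31.7% of all genes. The batch calls rested on 2 libraries. Without WT replicate 2, and equally without *Smchd1*-null replicate 3, 0 members passed either threshold. Without either one only 1 genotype is present in both batches, and over all genes 1 and 2 passed 0.05. The log2 fold change of Snhg5 was −0.51 and −0.69 in these fits and that of Snhg20 −0.60 and −0.73. Without WT replicate 4, 2 members passed 0.05 and 3 passed 0.25, where 1452 and 4430 of 14416 genes passed. An interaction of genotype and batch passed an adjusted p of 0.05 in limma for 0% of 14713 genes, so its absence among the members says nothing about them. In this fit WT in batch 1 and *Smchd1*-null in batch 2 are 1 sample each. The interaction of Snhg12 was −1.08 on the log2 scale (95% interval −2.08 to −0.08), with an unadjusted p of 0.0373, and 1.58% of all genes had an unadjusted p under 0.05.

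Batch differences moved with gene length over all genes. The Spearman correlation across genes of length with log2 fold change was 0.35 for batch and −0.38 for genotype, as a description, since genes share libraries and are not replicates. Of the 10 members, 8 were shorter than the median of 4160 bases over tested genes. With the trend of log-CPM with length removed from each sample, the log2 fold change between batches was −0.47 for Snhg5 and −0.62 for Snhg20, still with adjusted p-values of 0.0206 and 0.00708 in limma. Snhg8, the shortest member, then had 0.37 with an adjusted p of 0.0425 in place of 0.13 with 0.419. The part of length in these differences was not tested further.

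The member nearest to each was found by the root mean square difference of their centred log-CPM over 7 samples, which was read against the spread of each gene on the same scale. Snhg5 and Snhg20 were nearest to each other, with a difference of 0.149 against spreads of 0.295 and 0.294. Snhg1 and Snhg17 had 0.0984 against 0.156 and 0.188, and Snhg6 and Snhg12 had 0.271 against 0.346 and 0.411. Gas5 and Snhg8 had 0.0953 against 0.111 and 0.0777, a difference above the spread of Snhg8, so no likeness is read from this pair. Snhg11 had 0.639 to Snhg12, its nearest, against a spread of 0.690. The 5 genes nearest to the summed members were Pcmt1, Arl6ip6, Vim, Rps3a2 and Nap1l1, with differences of 0.0407 to 0.0514 against a median of 0.277 over 13296 genes. The sum itself varied by only 0.0796, so these are genes that varied little.

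Snhg11, known for its expression in brain neurons, had 75 counts in WT replicate 4 and 11 to 48 in the other libraries. Its 12.9 CPM there compare with 2.81 to 6.39 CPM in the other six. The same library was the highest for 4 of the 7 neuronal markers. Dcx was 36.2 CPM in it against 3.00 to 12 CPM, Snap25 7.37 against 0.977 to 3.38 CPM, Tubb3 15.1 against 7.87 to 13.3 CPM and Syt1 15.4 against 6.93 to 12.9 CPM. It was not the highest for Rbfox3 (2.74 CPM against 1.30 to 5.51 CPM), Map2 (342 against 327 to 362 CPM) or Stmn2 (0.514 against 0.375 to 1.05 CPM). The list, most of which is Map2, summed to 419 CPM in WT replicate 4 and 361 to 400 CPM in the others. The library was also the highest for all 4 astrocyte markers, such as S100b (65.0 CPM against 2.25 to 11.5 CPM), and for 4 of the 5 oligodendrocyte lineage markers, such as Sox10 (41.3 CPM against 2.10 to 14.9 CPM), with Mog as the exception. The part of these cells in the level of Snhg11 was not tested, and more cells of a type cannot be told apart from more RNA per cell.

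**Figure D4:**
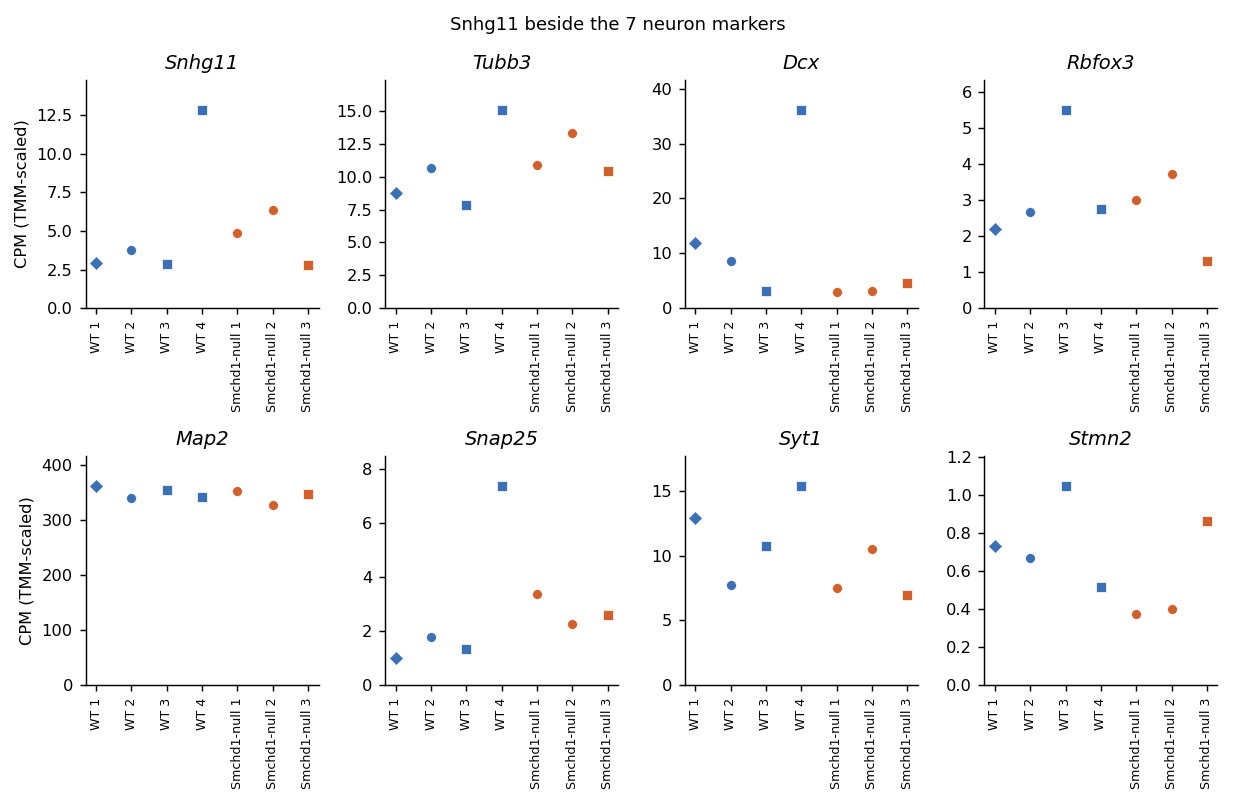
CPM of Snhg11 and of all 7 neuronal markers in each sample, on axes that start at 0, with blue for WT and orange for *Smchd1*-null and marker shape for sequencing batch. WT replicate 4 is the highest sample for Snhg11, Tubb3, Dcx, Snap25 and Syt1, and not for Rbfox3, Map2 and Stmn2.

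Without WT replicate 4 the WT mean of Snhg11 fell from 5.61 to 3.20 CPM. The log2 fold change between genotypes was then 0.73 with an adjusted p of 0.491 in limma, and 0 of the 9 members passed either threshold. Snhg11 and Snhg17 lie on chromosome 2 on opposite strands, with 14058 bases between their starts. Snhg17 was at its lowest, 22.5 CPM, in the library where Snhg11 was at its highest. In *Smchd1*-null replicate 2, however, Snhg17 was at its highest, 34.9 CPM, and Snhg11 at its next highest, 6.39 CPM. A relation between these genes was not tested.

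The nearest protein-coding gene that starts on the opposite strand was close for 2 other members. By the Gencode gene bounds the start of Zbtb37, at base 161034849, lies 427 bases inside Gas5, so that both genes overlap at their starts. The RefSeq start of Gas5 at base 161034601 also gives an overlap, and the one at base 161035166 does not. Zbtb37 had 3.06 to 9.52 CPM against the 319 to 413 CPM of Gas5. The start of Slc3a2, a subunit of amino acid transporters, lies 106 bases from that of Snhg1. Slc3a2 had 144 to 201 CPM and Snhg1 131 to 182 CPM, and the ranges overlapped.

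Other noncoding snoRNA hosts were compared with the members. Of 11 such genes, Snhg4 and Snhg7 had no match and are not analysed here, and 7 passed the filter. None of the 7 passed either threshold for genotype in limma, and their median log2 fold change was 0.175. Only 1, Snhg14, had an unadjusted p under 0.05, against 13.9% of all genes. Its log2 fold change was 0.50 ± 0.17 (SE, adjusted p = 0.294 in limma), with 20.2 to 36.0 CPM in WT and 30.3 to 36.4 CPM in *Smchd1*-null samples. Zfas1, which hosts C/D snoRNAs, had 169 to 208 CPM in WT and 203 to 236 CPM in *Smchd1*-null samples. Snhg15, Epb41l4aos and Dancr had WT means of 72.5, 72.8 and 37.4 CPM. Between batches only Dancr passed, at both thresholds and in edgeR and DESeq2 too, at −0.83 ± 0.15 on the log2 scale (SE, adjusted p = 0.00612 in limma). Of all genes 9.99% passed 0.05 and 33.8% passed 0.25 in limma.

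The 18 protein-coding hosts, most of which encode ribosomal proteins and translation factors, were all tested. None passed either threshold for genotype in limma, and 7 had an unadjusted p under 0.05, against 13.9% of all genes. In edgeR 0 of the 18 and in DESeq2 1 had such a p, against 5.07% and 4.46% of all genes. In limma 15 of the 18 had a log2 fold change above 0 (83.3%, against 50.6% of all genes). The most abundant were Rps3, a ribosomal protein, Rack1, a scaffold on the ribosome, Eef2, the elongation factor of translocation, and Eef1b2. Their log2 fold changes between genotypes were 0.28, 0.25, 0.33 and 0.21. Between batches 4 of the 18 were lower in batch 2 at 0.05 (Rpl7a, Rps12, Eef2 and Nop56), with log2 fold changes from −0.28 to −0.59. Of all genes 5.08% were lower at 0.05. At 0.25, 8 of the 18 were lower, Rack1 and Ncl among them, and 1, Tpt1, was higher, where 15.9% and 17.9% of all genes were. At 0.05 edgeR called 0 of these genes and DESeq2 called 1, against 1.39% and 3.41% of all genes. At 0.25 each called 4, against 21.1% and 11%. Genes of ribosomal proteins have many near-identical pseudogene copies, so their counts are uncertain.

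The proteins that bind snoRNAs did not pass a test for genotype either. All 9 core proteins of snoRNA particles (Fbl, Nop56, Nop58, Snu13, Rrp9, Dkc1, Nhp2, Nop10 and Gar1) had a log2 fold change above 0, with a median of 0.235. Above 0 were 50.6% of all genes. None of the 9 passed either threshold in limma, and 3 had an unadjusted p under 0.05, against 13.9% of all genes. All 9 were below 0 between batches, with a median of −0.19, where 7156 of 14713 genes were below 0. Of the 9, 4 passed 0.25, all lower in batch 2. Over all genes 33.8% passed 0.25, and 15.9% passed it as lower. Nop56, a C/D core protein that is itself a host, fell by 0.59 ± 0.12 (SE, adjusted p = 0.0101 in limma), and Nhp2, an H/ACA core protein, by 0.35 ± 0.10 (SE, adjusted p = 0.0486 in limma). Snu13 and Rrp9 passed 0.25 alone. At 0.05 limma called 2 of the 9, edgeR 0 and DESeq2 1, where they called 9.99%, 1.39% and 3.41% of all genes. The batches hold unequal shares of the genotypes, and the part of batch in the genotype values of these 9 genes was not tested.

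Of 9 assembly factors of snoRNA particles 8 were tested. None passed either threshold for genotype in limma, with 2 at an unadjusted p under 0.05, against 13.9% of all genes. Between batches Pih1d1 (−0.62) and Ruvbl2 (−0.36) were lower and Naf1 (0.76) was higher at 0.05, and Shq1 (0.45) was higher at 0.25. At 0.05 limma called 3 of these 8 genes, edgeR 0 and DESeq2 2, where they called 9.99%, 1.39% and 3.41% of all genes. At 0.25 they called 4, 3 and 3 of the 8, against 33.8%, 21.1% and 11% of all genes. Naf1 and Shq1 act in the assembly of H/ACA particles.

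Nonsense-mediated decay, a pathway that degrades host RNAs, was represented by 12 genes. None passed either threshold for genotype in limma, and 2 had an unadjusted p under 0.05, against 13.9% of all genes. Between batches 8 of the 12 passed 0.25, where 33.8% of all genes passed. Of these 8 genes 5 were higher and 3 lower in batch 2, where 17.9% and 15.9% of all genes were. Upf1, the helicase at the core of the pathway, was higher in batch 2 by 2.04 ± 0.27 on the log2 scale (SE, adjusted p = 0.00166 in limma). It had 2.67 to 3.75 CPM in batch 1, 10.1 to 14.9 CPM in batch 2 and 13.2 CPM in WT replicate 1. Smg1 was also higher (0.49) and Smg5 (−0.41) and Smg9 (−0.67) were lower at 0.05, while Upf2 and Upf3a were higher and Upf3b was lower at 0.25. At 0.05 limma called 4 of the 12, edgeR 1 and DESeq2 0, where they called 9.99%, 1.39% and 3.41% of all genes. At 0.25 edgeR called 5 of the 12 and DESeq2 called 2, where they called 21.1% and 11%.

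The 11 regulators of 5′ terminal oligopyrimidine RNAs gave 0 calls for genotype at either threshold in limma, with 2 at an unadjusted p under 0.05. Between batches Larp1, which binds such RNAs, was lower (−0.42, adjusted p = 0.0421 in limma). At 0.25 Eif4ebp1 (−0.47) was lower and Larp4 (0.29) and Tsc1 (0.42) were higher. In limma 1 of the 11 thus passed 0.05 and 4 passed 0.25, where 9.99% and 33.8% of all genes passed. Over all 226 annotated snoRNA hosts in the genotype fit, 1 passed 0.25 and 0 passed 0.05 in limma, against 1.08% and 0.0902% of all genes. Of these 226, 31 had an unadjusted p under 0.05, against 13.9% of all genes, and the median log2 fold change was −0.00065. In the batch fit 22 of 236 such hosts passed 0.05 and 77 passed 0.25 in limma, against 9.99% and 33.8% of all genes. Above 0 were 142 of the 236 (60.2%, against 51.4% of all genes). For genotype, edgeR and DESeq2 called 0 genes of any of these lists at either threshold. Each gave at most 1 gene an unadjusted p under 0.05 in each of the 6 chosen lists and 6 among all annotated hosts. Over all genes 5.07% had such a p in edgeR and 4.46% in DESeq2.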

How the data were processed

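The data are long-read direct-cDNA libraries of polyadenylated RNA from 4 WT and 3 *Smchd1*-null NSC samples. Each deposited file holds 1 raw count per gene, made by the authors by aligning reads to mm10 with minimap2 2.17 and counting primary alignments with featureCounts in long-read mode on Gencode M23 (GRCm38), and a gene length in bases. The authors summed the reads of WT replicate 1 over batches. Counts of overlapping, antisense and near-identical genes are uncertain.

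Members and lists were chosen with earlier results of these data known. Of 55335 identifiers, 55154 matched Gencode M21 without version. Snhg16 was matched through its RefSeq synonym. Genes were filtered with filterByExpr and scaled by TMM. CPM are relative to the scaled library size, and log-CPM used a prior count of 2. Genotype was tested with limma's voomWithQualityWeights over all 7 samples (13305 genes). Batch was tested with genotype as a term over the 6 samples sequenced once (14713 genes). Tests were two-sided with Benjamini-Hochberg adjustment over all genes, at 0.05 and 0.25. The tools were DESeq2 1.42.0, edgeR 4.0.16 and limma 3.58.1 in R 4.3.3. The fits were also run on simulated counts, drawn from a shared mean profile without a trend with gene length. That run does not show how the fits perform on these libraries. No 2 libraries of a group were duplicates (lowest chi-square per degree of freedom 2.72).

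All members and Smchd1 were named by rule. List genes were named if they were among the 4 with the highest mean CPM or passed 0.25, and a few others were added as examples. A few genes that met the rule are not reported here. The alternatives were edgeR, DESeq2, voom without weights, other scaling factors, other filters on low counts, batch and replicate terms, removal of the trend with gene length (lowess, span 0.3), thinning to 2741820 counts, and leaving out each sample. Sequences come from Gencode M21 transcripts and RefSeq start regions.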

Additional observations from a re-analysis of the deposited data

How the results depend on the processing

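Over 22 alternatives for genotype, 0 members passed 0.05 in each. At 0.25 the count was 0 in 20 and 1, Snhg5, without WT replicate 2 (0.48, adjusted p = 0.119 in limma) and without *Smchd1*-null replicate 3 (0.44, adjusted p = 0.113 in limma). In these 2 fits 2924 of 12891 and 3153 of 13395 genes passed 0.25, so the call is not particular to Snhg5. Leaving out each sample gave 0 to 0 members at 0.05 and 0 to 1 at 0.25. For batch it gave 0 to 2 members at 0.05 and 0 to 4 at 0.25, with 0 only without WT replicate 2 or *Smchd1*-null replicate 3. The other 10 alternatives gave 2 or 3 at 0.05 and 3 to 5 at 0.25. Over all genes these 10 gave 205 to 1652 calls at 0.05 and 1614 to 5152 at 0.25, of 11382 to 35292 genes tested. Over all genes, calls for genotype at 0.25 ranged from 1 without *Smchd1*-null replicate 1 to 3153 without *Smchd1*-null replicate 3 (144 as reported), and edgeR, DESeq2 and voom without weights gave 8, 32 and 10. For batch at 0.05 they ranged from 1 to 1652 (1470 as reported), with 205 in edgeR and 501 in DESeq2. The WT mean CPM of each member moved by less than its SD under other scaling factors.

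Same-numbered WT and *Smchd1*-null samples had correlations of −0.04, 0.36 and 0.09 of their deviations, so the numbers were not taken as pairs. With the replicate number as a block 0 members passed either threshold, and the genes called over the table at 0.25 went from 144 to 129 and at 0.05 from 12 to 23. Under the block the log2 fold change was 0.0519 for Snhg6, 0.126 for Snhg12 and −0.209 for Snhg20, each of opposite sign to the reported value, and with the block and the batch share it was 0.125, 0.0421 and −0.305. With the block and the length trend removed it was −0.0246 for Snhg8, 0.108 for Snhg12 and −0.220 for Snhg20.

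Other changes of sign were among values that passed no threshold, and the cause was not tested. For genotype, with the batch share as a term, Snhg6 had 0.168, Snhg12 0.135 and Snhg20 −0.266, with batch over the 6 samples sequenced once 0.259, 0.108 and −0.285, and with the batch share and the length trend removed 0.116, 0.129 and −0.267. With the length trend removed alone, Snhg8 had −0.175. By edgeR, DESeq2 and voom without weights, Snhg11 had −0.282, −0.272 and −0.0777 and Snhg20 −0.0495, −0.0496 and −0.0489. With every gene of at least 1 count Snhg20 had −0.0265, with library size alone Gas5 had −0.0258, and thinned Snhg6 had 0.00834. For batch, by the same 3 tools, Snhg11 had 0.118, 0.0649 and 0.0174, and Snhg17 had 0.0116 with library size alone and 0.000115 with at least 10 counts in every sample. Leaving out 1 sample also turned signs, with ranges for genotype of −0.0357 to 0.133 in Gas5, −0.476 to 0.0677 in Snhg6, −0.182 to 0.735 in Snhg11, −0.347 to 0.0384 in Snhg12 and −0.136 to 0.220 in Snhg20. For batch the ranges were −0.0581 to 0.259 in Gas5, −0.184 to 0.00613 in Snhg1, −1.03 to 0.862 in Snhg11 and −0.171 to 0.0352 in Snhg17. Depth limits Snhg6 and Snhg11, which had as few as 10 and 11 counts in a library.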
